A study of Caenorhabditis elegans with 18 samples.

Results

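The small RNAs recovered with the Argonaute WAGO-1 from Caenorhabditis elegans carrying a deletion in dpf-3 were set against those recovered with the Argonaute WAGO-3. For each of the 2 tagged proteins the anti-FLAG immunoprecipitate (IP) was first compared with the total small RNA of the same strain (the input), and the 2 enrichments were then subtracted from each other. The comparison took 12 of the 18 libraries of the series: 3 IPs and 3 inputs of FLAG-tagged WAGO-1 with dpf-3 deleted (labelled 1xFLAG::WAGO-1 dpf-3{delta}), and 3 IPs and 3 inputs of FLAG-tagged WAGO-3 in animals labelled with no dpf-3 lesion (1xFLAG::WAGO-3). All strains were whole fourth-stage (L4) larvae grown at 15 °C on the bacterial strain NA22. Values of FLAG-tagged WAGO-1 with dpf-3 intact (1xFLAG::WAGO-1, the other 6 libraries) are given beside them where they help. Both the tagged protein and the dpf-3 genotype differ between the strains compared, while intact WAGO-1 differs from each of them in 1 of these. The sources used here do not give the extent of the deletion or the place of the tag in the genome. Nor do they say that the libraries lettered A, B and C came from separate cultures, so p-values measure the spread between these samples, which may be technical.

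Argonautes are proteins that hold a short RNA and use it to find matching transcripts. WAGO-1 and WAGO-3 (the product of the gene ppw-2) belong to a branch of worm-specific Argonautes that carry 22G RNAs, short antisense RNAs which RNA-dependent RNA polymerases copy from target transcripts, and both work in the germline. DPF-3 is a dipeptidyl peptidase, an enzyme that clips residues from the start of proteins, and the title of the series asks whether such processing of Argonautes governs the small RNAs they associate with. A read here is a small RNA assigned to a gene, and not a measure of its messenger RNA. It may be a trace of that gene being a template for 22G RNAs, but the length, first base and strand of the reads were not examined.

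Reads assigned to features numbered 4301519 to 5649896 in the IPs of WAGO-1 from the dpf-3 deletion and 88761 to 121874 in their inputs, against 2206087 to 3706143 in the WAGO-3 IPs and 212387 to 305688 in the WAGO-3 inputs. The inputs therefore set the precision. Of all counted reads, 32.5 to 32.8% fell outside any feature in the WAGO-1 IPs and 79.9 to 82.4% in their inputs, against 34.6 to 34.9% and 68.6 to 74.8% for WAGO-3. Per the labels' protocols, the inputs passed through a small RNA enrichment kit that the IPs did not, and no IP from untagged animals was analysed here, so binding to the tagged protein, RNA held by the beads and this difference in preparation cannot be told apart. Levels below are CPM, counts per 1000000 reads of a library scaled by the trimmed mean of M values (TMM), and enrichment is the log2 ratio of IP to input. Differences were called where edgeR's quasi-likelihood test gave an adjusted p (Benjamini-Hochberg) under 0.05. The test ran over 11648 features, of which 9869 were annotated genes and 1779 were intervals that the table names only by position.

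Across features, the enrichments of WAGO-1 from the dpf-3 deletion lay nearer those of WAGO-1 with dpf-3 intact than those of WAGO-3. Over the 1672 features with at least 30 counts in each of the 6 groups, its enrichments correlated with those of WAGO-3 at a Pearson r of 0.700 and with those of intact WAGO-1 at 0.937, while WAGO-3 and intact WAGO-1 correlated at 0.694. The median distance between enrichments was 0.61 on the log2 scale from WAGO-3 and 0.31 from intact WAGO-1, and 71.5% and 92.9% of these features lay within 2-fold. These are descriptions across features, which are not independent of each other. The pairs share the libraries of one member, and the requirement on counts leaves out features lost from any group. Over all 11648 features r was 0.561 with WAGO-3 and 0.778 with intact WAGO-1. Set against intact WAGO-1 by edgeR's test, 181 features were higher (1.55%) and 77 lower (0.661%) with WAGO-1 of the deletion, and 1450 were higher (12.4%) and 1750 lower (15.0%) with WAGO-3, 2 comparisons that share the intact libraries. Not every measure had this order. Unnamed intervals made up 12.04% of feature counts in the IPs of the deletion, 23.0% in the WAGO-3 IPs and 31.25% in the intact WAGO-1 IPs. Their shares of the inputs ran the same way, at 8.32, 14.2 and 26.5%. The median enrichment of tested intervals did follow the main order, at 1.775 in the deletion, 2.315 with WAGO-3 and 1.711 with intact WAGO-1. The median enrichment of the genes of 22G Argonautes was -0.27, -0.72 and -1.46 in the same strains, and that of cytosolic ribosomal protein genes was 0.23, -0.51 and -1.05.

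**Figure D1:**
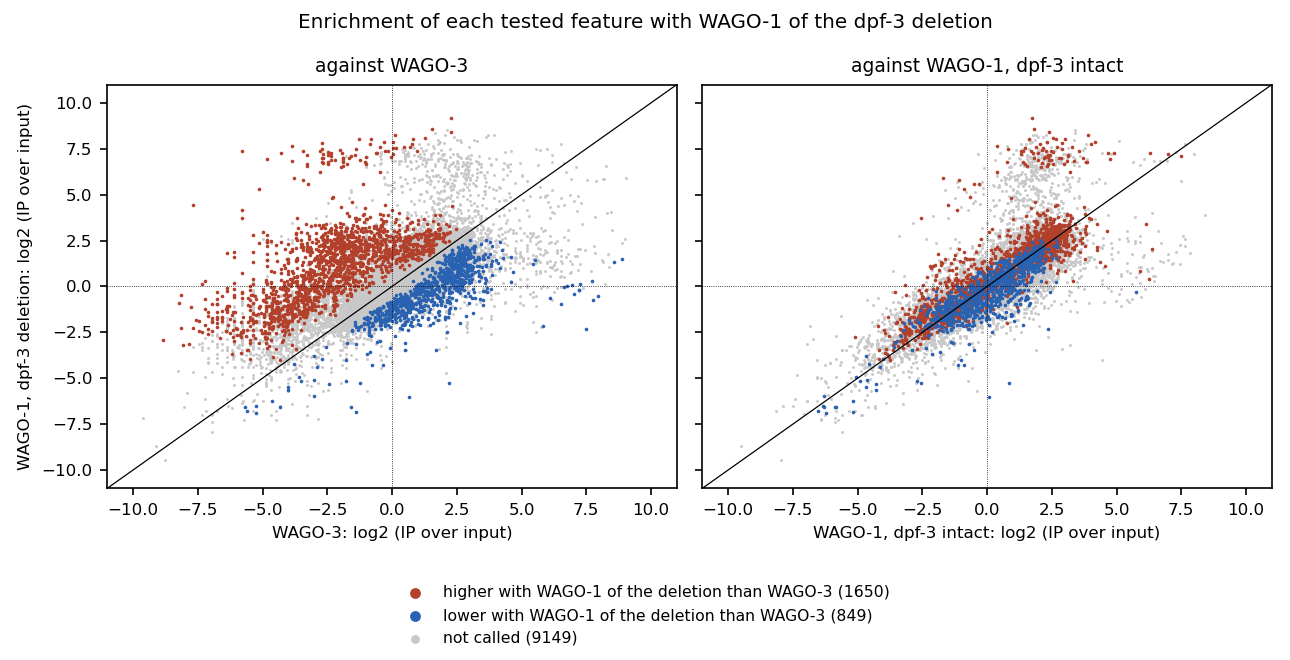
Each point is a tested feature, with its log2 ratio of IP to input for WAGO-1 of the dpf-3 deletion on the vertical axis and, on the horizontal axis, that of WAGO-3 (left) or of WAGO-1 with dpf-3 intact (right); coloured points are features whose enrichment was called different between WAGO-1 of the deletion and WAGO-3. The points scatter more widely about the diagonal on the left, where r over all 11648 features is 0.561, than on the right, where it is 0.778.

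The direct test called 1650 features higher with WAGO-1 of the dpf-3 deletion (14.2% of those tested) and 849 lower (7.29%) relative to WAGO-3. Among genes 1553 were higher (15.7%) and 647 lower (6.56%), and among unnamed intervals 97 were higher (5.45%) and 202 lower (11.4%). The median difference over all features was 0.11 on the log2 scale. The balance depends on the scaling. With TMM, 66.0% of the calls were higher, against 88.3% when libraries were scaled to their total feature counts and 97.3% when they were scaled to all counted reads, where the median feature moved to 0.66 and 1.33. Of the 4675 features with at least 10 counts in each of the 4 groups, 705 were higher and 670 lower. Differences of a gene or list are therefore best read against the median of all features.

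In each strain the IP differed widely from its input: with WAGO-1 of the deletion 3831 features were higher in the IP (32.9%) and 2464 lower (21.2%), and with WAGO-3 4048 were higher (34.8%) and 3122 lower (26.8%). Called enrichment of at least 2-fold was met by 3546 features with WAGO-1 of the deletion and by 3685 with WAGO-3, and 2149 met it with both, which is 60.6% and 58.3% of the 2 lists. Unnamed intervals were shared unequally: 658 were 2-fold enriched with both proteins, 81.1% of the list of WAGO-1 of the deletion and 51.4% of the longer WAGO-3 list. A reversal, at least 2-fold up in one IP and at least 2-fold down in the other with both called, occurred for 319 features (287 of them genes) in favour of WAGO-1 of the deletion and for 20 (19 genes) in favour of WAGO-3. Reversals were counted with TMM only, and the sign of an enrichment depends on the scaling. Median enrichments over all features were 0.40 in the deletion and 0.23 with WAGO-3 with TMM. Under scaling to total feature counts they were -0.67 and -1.39. A further 696 features had a difference bounded within 2-fold, both by its 95% interval and by tests against shifts of that size, 380 of them higher in both IPs and 199 lower in both.

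Most features with a called difference also differed between the IPs alone. IP against IP, 3970 features were higher with WAGO-1 of the deletion (34.1%) and 3559 lower (30.6%). Between the inputs 315 were higher in the dpf-3 deletion strain (2.7%) and 1107 lower (9.5%). The inputs held far fewer reads, so a difference between them was less likely to be called. The median absolute log2 difference was 0.96 between the IPs and 0.64 between the inputs. The difference of enrichment is built from both comparisons, so its overlap with the IP calls is not separate evidence. Of the 1650 features with a higher enrichment, 1524 were also higher in the direct comparison of IPs, and 223 were lower in the deletion strain's inputs. Of the 849 with a lower enrichment, 728 were lower in the IPs and 126 were higher in the deletion strain's inputs.

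The genes with the largest excess for WAGO-1 of the dpf-3 deletion were enriched in its IP and depleted from the WAGO-3 IP. T22B2.2 (X, 3920401 to 3923877 in build ce11, coordinates from RefSeq here and below) stood at 266, 284 and 279.6 CPM in the WAGO-1 IPs and 5.101, 6.13 and 7.06 CPM in the WAGO-3 IPs. Its inputs held 84.3, 66.4 and 70.0 CPM in the dpf-3 deletion and 103, 86.8 and 91.35 CPM in the WAGO-3 strain. Every WAGO-1 IP thus lay above its inputs and every WAGO-3 IP below. The difference of enrichment was 5.85 ± 0.33 (log2, SE, adjusted p = 2.43e-33), from an enrichment of 1.9 with WAGO-1 of the deletion and -3.95 with WAGO-3. With dpf-3 intact, WAGO-1 enriched T22B2.2 by 2.2.

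F46F5.5 (II, 812092 to 813017) showed the same reversal at a higher level, with 2409, 2403 and 2394 CPM in the WAGO-1 IPs of the deletion and 67.0, 79.1 and 67.6 CPM in the WAGO-3 IPs. The inputs lay nearer each other, though lower in the deletion, at 364, 342 and 324 CPM in the deletion and 418, 513 and 421 CPM in the WAGO-3 strain. The difference was 5.47 ± 0.16 (adjusted p = 1.94e-63). nhr-229 (IV, 17028931 to 17030594), which encodes a nuclear hormone receptor, had 8654, 9702 and 9334 CPM in the WAGO-1 IPs and 335, 335 and 315 CPM in the WAGO-3 IPs. Its inputs were nearly level, with 2238, 2083 and 2459 CPM in the deletion and 2549, 2507 and 2581 CPM in the WAGO-3 strain. The difference of 4.98 ± 0.11 (adjusted p = 3.28e-77) again joined an enrichment of 2.03 to a depletion of -2.95. nccd-1 (IV, 16988697 to 16989783) held 1471, 1658 and 1665 CPM in the WAGO-1 IPs of the deletion and 49.7, 71.1 and 49.4 CPM in the WAGO-3 IPs, with a difference of 5.17 ± 0.16 (adjusted p = 1.76e-60).

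Other genes of this kind were C24H12.6 (difference 5.24 ± 0.18), C09F9.2 (5.84 ± 0.46), F41H10.2 (5.68 ± 0.45), F12A10.6 (5.56 ± 0.35), C28F5.1 (5.20 ± 0.32) and T05F1.7 (5.02 ± 0.35). Better known genes were among them. lgc-37, of the ligand-gated ion channel family, differed by 5.79 ± 0.50 (adjusted p = 1.13e-19). egl-9, the prolyl hydroxylase of the hypoxia response, stood at 369.5, 289.5 and 307 CPM in the WAGO-1 IPs of the deletion and at 19.1, 22.1 and 24.2 CPM in the WAGO-3 IPs, and differed by 5.01 ± 0.41 (adjusted p = 7.64e-21). jmjd-3.1, a demethylase of histone H3, differed by 5.02 ± 0.52 (adjusted p = 5.23e-15). The inputs of these last genes were shallow, with 13 counts of lgc-37, 16 of egl-9 and 10 of jmjd-3.1 over the 3 inputs of the deletion. The enrichments with intact WAGO-1 were 2.45 for lgc-37, 3.08 for egl-9 and 2.77 for jmjd-3.1, beside 3.19, 3.90 and 2.94 in the deletion. Of the 3936 genes that reached 20 CPM in any group and 10 counts in each of the 4, 569 were called higher and had IP to input ratios that did not overlap between the strains, and 126 of the 3936 were reversals of at least 2-fold.

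**Figure D2:**
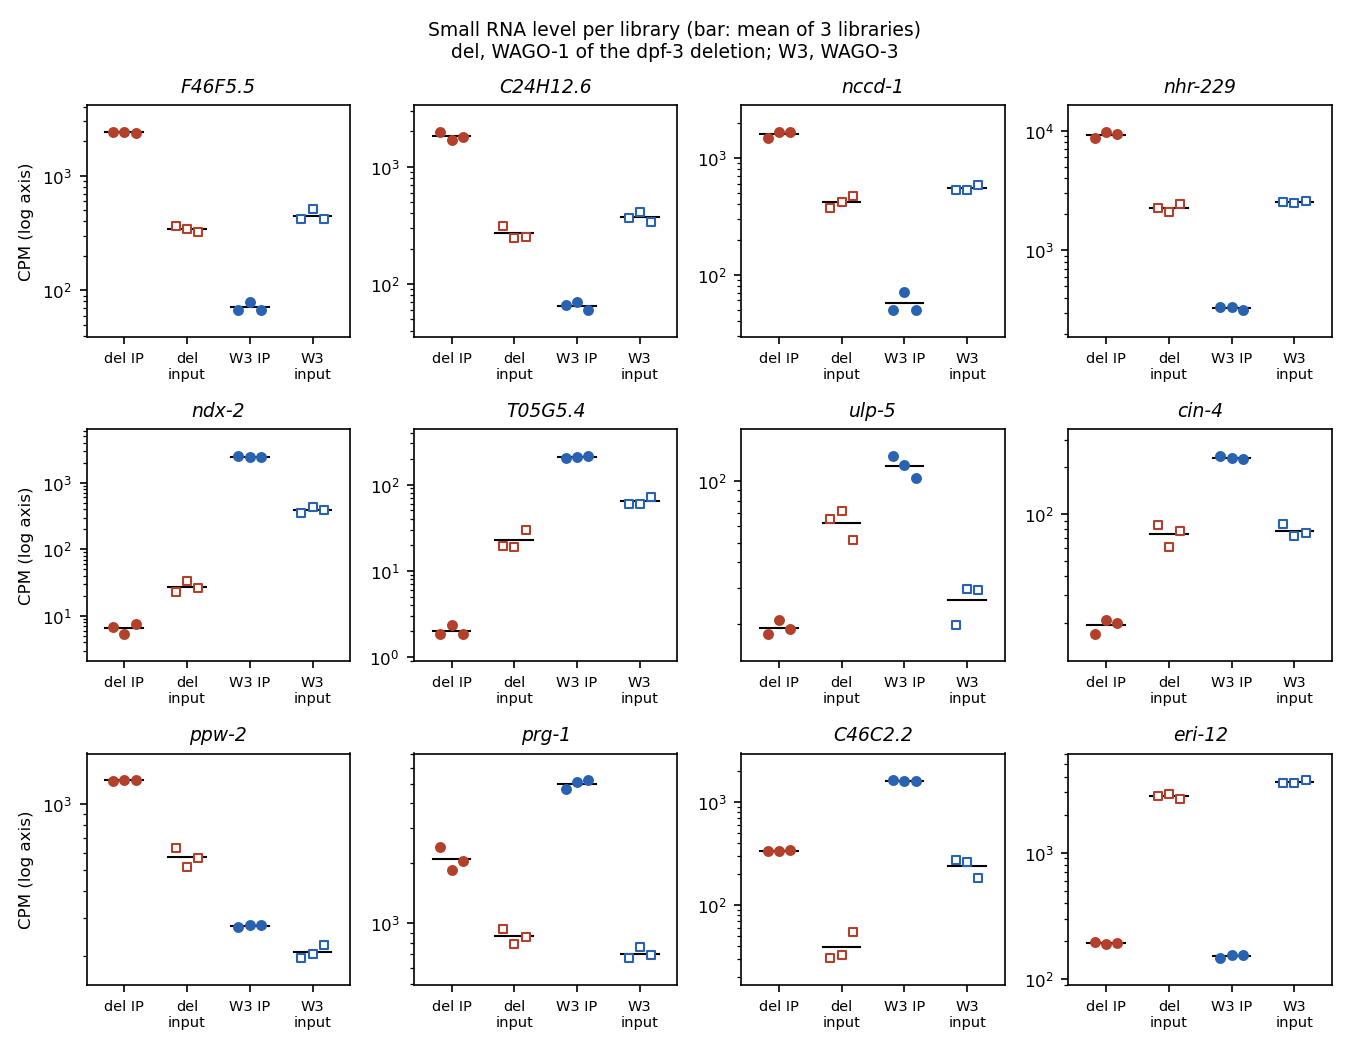
TMM-scaled CPM of single genes on a log axis, in IPs and inputs of WAGO-1 with dpf-3 deleted (del) and of WAGO-3 (W3); each point is a library and each bar the mean of 3. F46F5.5 stands between 2394 and 2409 CPM in the WAGO-1 IPs of the deletion and between 67.0 and 79.1 CPM in the WAGO-3 IPs, while ndx-2 stands between 5.29 and 7.56 CPM and between 2395 and 2498 CPM.

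Genes on the other side were depleted from the WAGO-1 IP of the deletion and enriched with WAGO-3, and several also differed between the inputs. ndx-2 (V, 2662964 to 2665003), of the Nudix hydrolase family, had 6.84, 5.29 and 7.56 CPM in the WAGO-1 IPs of the deletion and 2498, 2395 and 2463 CPM in the WAGO-3 IPs. Its inputs held 23.0, 33.2 and 25.8 CPM in the deletion and 345, 434 and 391.5 CPM in the WAGO-3 strain, so the inputs did not overlap either. The difference of enrichment was -4.65 ± 0.48 (adjusted p = 5.69e-15), on top of an input difference of -3.86. T05G5.4 (III, 9748934 to 9749673) stood at 1.83, 2.33 and 1.85 CPM in the WAGO-1 IPs and 203, 207 and 213 CPM in the WAGO-3 IPs, with a difference of -5.19 ± 0.57 (adjusted p = 1.14e-13). ZK973.8 differed by -3.21 ± 0.36 (adjusted p = 1.43e-13) with an input difference of -3.08, and was enriched by 1.47 with intact WAGO-1 but at -0.75 in the deletion.

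For other genes the inputs were nearer each other. cin-4 (II, 7038292 to 7041685), related to DNA topoisomerase II, had 16.9, 20.97 and 20.0 CPM in the WAGO-1 IPs of the deletion and 235, 227 and 225 CPM in the WAGO-3 IPs. Its inputs held 84.3, 61.7 and 77.4 CPM in the deletion and 86.2, 71.9 and 75.0 CPM in the WAGO-3 strain, overlapping. The difference was -3.54 ± 0.31 (adjusted p = 3.61e-19). ulp-5, of a family of proteases that act on the modifier SUMO, had 17.9, 20.97 and 19.0 CPM in the WAGO-1 IPs and 132, 120.1 and 103.9 CPM in the WAGO-3 IPs. It differed by -3.86 ± 0.37 (adjusted p = 1.28e-16). timm-17B.1, a mitochondrial import gene, differed by -3.39 ± 0.44, and ccf-1, a deadenylase of the CCR4-NOT complex, by -3.27 ± 0.47. For ccf-1 the enrichment was -0.13 in the deletion and 3.14 with WAGO-3.

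K11H3.2 (-3.17 ± 0.32), C06C3.10 (-3.16 ± 0.49) and H14A12.5 (-3.11 ± 0.55) belonged to the same set. F44E2.4 (-5.45 ± 0.54) and gur-4 (-4.03 ± 0.73), a member of the gustatory receptor family, were depleted from both IPs, but more so from that of WAGO-1 in the deletion: F44E2.4 had an enrichment of -6.84 there and of -1.39 with WAGO-3. In all, 434 genes were called lower with no overlap of their IP to input ratios, and 15 were reversals of at least 2-fold.

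**Figure D3:**
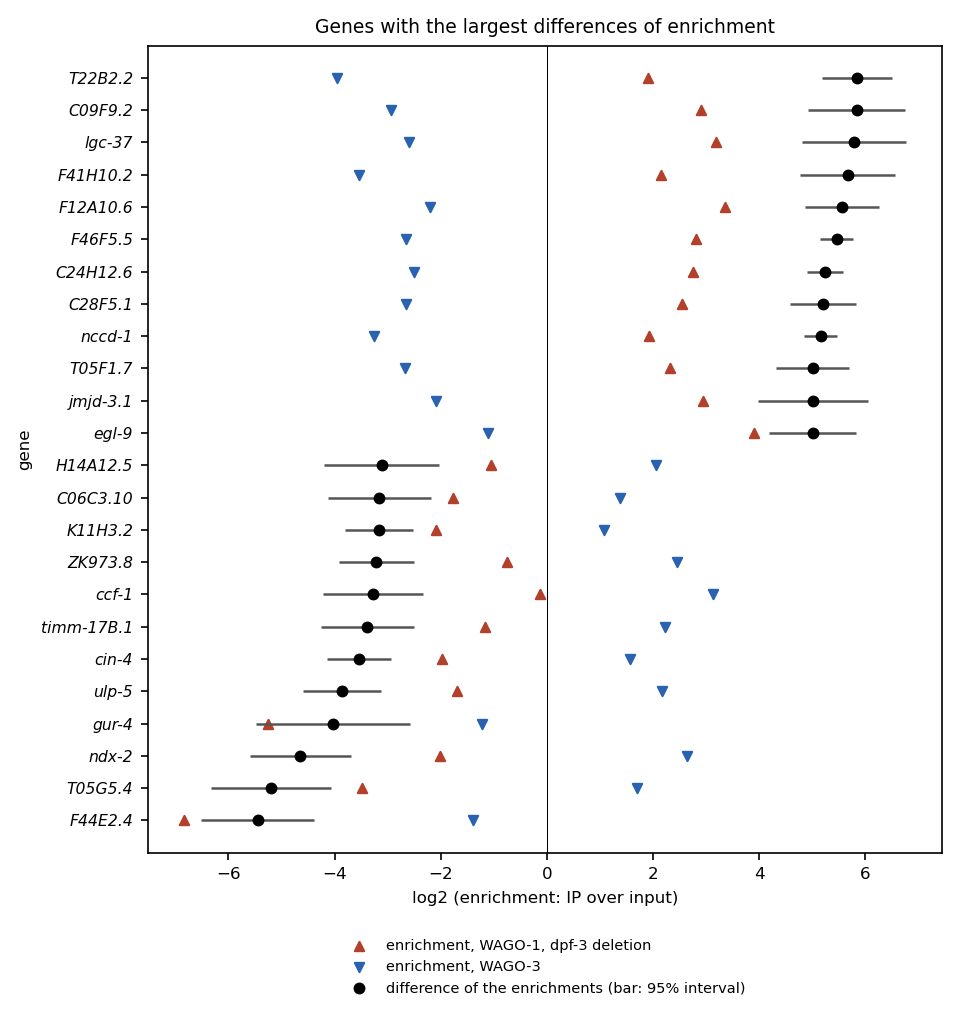
Log2 enrichment with WAGO-1 of the dpf-3 deletion (upward triangles) and with WAGO-3 (downward triangles) and their difference (black points with 95% intervals) for the genes with the largest differences in each direction. Differences run up to 5.85 for T22B2.2 and down to -5.45 for F44E2.4, and most genes have the 2 triangles on opposite sides of 0.

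Genes with under 10 counts in a group are given by their ratios. T22B2.5, near T22B2.2 on X, had 19.35, 22.9 and 21.5 CPM in the WAGO-1 IPs of the deletion and 0, 0 and 1.01 CPM in the WAGO-3 IPs, where it had 1 count in all. The ratio of the IPs was 88.5, with a 95% counting interval of 15.8 to 3500. mps-3, an accessory subunit of potassium channels, had no count in the WAGO-3 IPs and 130 in the WAGO-1 IPs of the deletion, which makes it at least 10.9-fold higher in the WAGO-1 IPs, taking 3 counts over the group as the floor. F18A12.2, also without a count in the WAGO-3 IPs, was at least 4.94-fold higher. In the other direction, set-28, of the SET domain family, was higher in the WAGO-3 IPs by a ratio of 5.57 (95% 4.61 to 6.74) and C26B2.7 by 7.72 (95% 6.03 to 9.92). These intervals cover counting error only.

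Both proteins also shared targets. C46C2.2 (IV, 9217726 to 9220397) had 339, 333 and 342 CPM in the WAGO-1 IPs of the deletion over inputs of 30.65, 33.2 and 55.3 CPM. With WAGO-3 it had 1631, 1615 and 1597 CPM over inputs of 275, 263 and 183 CPM. The levels differed between strains while the enrichments, 3.06 and 2.74, differed by 0.32 with a 95% interval of -0.22 to 0.87. That difference was 0.89 and called under scaling to total feature counts, and 1.56 under scaling to all counted reads. abhd-14, of the alpha/beta hydrolase family, was enriched by 2.91 and 3.02, with an interval of -0.81 to 0.58 for the difference. Among features depleted from both IPs, eri-12 had 196, 189 and 192 CPM in the WAGO-1 IPs and 145, 154 and 153 CPM in the WAGO-3 IPs, over inputs of 2786, 2936 and 2643 CPM in the deletion and 3574, 3561 and 3749 CPM in the WAGO-3 strain. The enrichments of eri-12 were -3.85 and -4.59, and their difference of 0.73 ± 0.12 passed the test (adjusted p = 1.58e-07) while its interval, 0.50 to 0.97, stayed within 2-fold. Y37E3.30 was at -4.52 and -4.46, with an interval of -0.33 to 0.21. The intervals of abhd-14, eri-12 and Y37E3.30 are those with TMM, where the median difference of all features was 0.11. That median was 0.66 under scaling to total feature counts and 1.33 under scaling to all counted reads.

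Small RNAs of the genes behind the experiment were then examined. ppw-2 (I, 5158511 to 5162232), which encodes WAGO-3, had 1285, 1291 and 1291 CPM in the WAGO-1 IPs of the deletion and 272, 277 and 277 CPM in the WAGO-3 IPs. Its inputs held 628, 517 and 564 CPM in the deletion and 196, 206 and 225 CPM in the WAGO-3 strain, so small RNAs of ppw-2 were higher in both kinds of library. The difference of enrichment was 0.77 ± 0.16 (adjusted p = 3.94e-05), from 1.17 in the deletion and 0.40 with WAGO-3. With dpf-3 intact the WAGO-1 IPs held 57.8, 57.9 and 59.1 CPM of ppw-2 over inputs of 148, 209 and 227 CPM, an enrichment of -1.78. The change between the WAGO-1 strains was 2.95 ± 0.16 (adjusted p = 3.99e-34).

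wago-1 had 55.2, 62.5 and 58.5 CPM in the WAGO-1 IPs of the deletion and 34.4, 31.3 and 37.3 CPM in the WAGO-3 IPs. Its enrichment was -1.32 in the deletion and -1.61 with WAGO-3, and the difference of 0.28 did not pass the test (adjusted p = 0.506, 95% interval -0.25 to 0.81), though it did under scaling to total feature counts (0.84) and to all counted reads (1.52). dpf-3 had 11.5, 9.49 and 3.69 CPM in the inputs of the deletion and 49.7, 24.8 and 35.9 CPM in the WAGO-3 inputs, an input difference of -2.13 ± 0.58 (adjusted p = 0.00395). Its IPs held 2.33, 2.12 and 4.53 CPM with WAGO-1 of the deletion and 10.8, 14.1 and 15.1 CPM with WAGO-3, and the difference of enrichment was 0.05 ± 1.05 (adjusted p = 0.986). Small RNA counts do not check the deletion itself.

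Among the genes of Argonautes that carry 22G RNAs, 10 of 12 were tested, 4 were higher and 2 lower, beside 15.7% of all genes higher and 6.56% lower. wago-5 differed by 4.99 ± 0.81 (adjusted p = 2.13e-07), with 46.04, 51.7 and 52.7 CPM in the WAGO-1 IPs of the deletion and 0, 1.84 and 3.03 CPM in the WAGO-3 IPs. wago-10 differed by 2.53 ± 0.68 (adjusted p = 0.00278) and wago-4 by -0.89 ± 0.16 (adjusted p = 1.79e-06). The last lost its call under scaling to total feature counts (-0.33) and without the filter on low counts (-0.41), and changed sign under scaling to all counted reads (0.35). The other Argonautes had 8 of 8 tested, 2 higher and 2 lower. Of these, alg-2 of the microRNA pathway differed by 2.86 ± 0.85 (adjusted p = 0.00738) and alg-3, which carries 26G RNAs in sperm development, by 1.75 ± 0.46 (adjusted p = 0.00252).

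prg-1, the Argonaute of piRNAs, was enriched in both IPs and more with WAGO-3. It had 2422, 1842 and 2044 CPM in the WAGO-1 IPs of the deletion and 4718, 5082 and 5197 CPM in the WAGO-3 IPs. The inputs were 939, 787.5 and 859 CPM in the deletion and 669.6, 761 and 692 CPM in the WAGO-3 strain, also without overlap but the other way. The difference was -1.53 ± 0.12 (adjusted p = 3.36e-21), which kept its sign but was no longer called, at -0.30, under scaling to all counted reads. rde-1, the Argonaute that takes up primary RNAs in RNA interference, differed by -1.61 ± 0.42 (adjusted p = 0.00219).

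Genes of the machinery that makes and stores 22G RNAs had few higher calls with TMM, against 15.7% of all genes called higher and 6.56% lower. The balance turned under scaling to all counted reads. There 5 of 13 RNA-dependent RNA polymerase and Dicer complex genes and 5 of 16 Mutator focus and RDE genes were higher, and none lower. Among 13 RNA-dependent RNA polymerase and Dicer complex genes, 1 was higher and 2 lower. rrf-2, an RNA-dependent RNA polymerase, was the higher one at 1.85 ± 0.28 (adjusted p = 3.53e-08), with 193, 197 and 197.5 CPM in the WAGO-1 IPs of the deletion and 96.3, 87.7 and 93.8 CPM in the WAGO-3 IPs. rde-4, the double-stranded RNA binding partner of Dicer, was lower at -1.32 ± 0.20 (adjusted p = 2.41e-08). Of 16 Mutator focus and RDE genes 1 was higher and 4 lower. mut-7, an exonuclease, differed by -1.30 ± 0.25 (adjusted p = 1.72e-05) and mut-15 by -1.26 ± 0.27 (adjusted p = 0.000125). Each of rde-1, rde-4, mut-7 and mut-15 kept a negative sign but lost its call under scaling to all counted reads, and rde-1 and mut-15 also did without the filter on low counts.

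None of 20 germ granule genes was higher and 8 were lower, with a median difference of -0.58. Median enrichments were -0.47 in the deletion, 0.51 with WAGO-3 and -1.03 with intact WAGO-1. glh-4, a Vasa-related helicase, had 89.6, 91.3 and 95.2 CPM in the WAGO-1 IPs of the deletion and 354, 355.5 and 345 CPM in the WAGO-3 IPs, over overlapping inputs of 234, 247 and 169.6 CPM and 196, 228 and 228 CPM. Its difference was -1.91 ± 0.18 (adjusted p = 1.14e-16). znfx-1, a helicase of the Z granule, differed by -1.08 ± 0.15 (adjusted p = 1.41e-09), but by 0.15 under scaling to all counted reads. Of 16 piRNA pathway genes none was higher and 3 were lower. Under scaling to all counted reads 6 piRNA pathway genes were higher and none lower, and 6 germ granule genes were higher and 1 lower. Relative to the median of all features the germ granule list stood at -0.69, and between -0.985 and -0.588 over the 18 alternatives, while its unadjusted median ran from -0.635 to 0.652, so the sign of the list itself depends on the scaling.

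Among 16 loci known as strong sources of 22G RNAs, 3 were higher and 7 lower, with 15.7% of all genes higher and 6.56% lower. Under scaling to all counted reads 6 were higher and 1 lower, and the median difference was 0.46. Y47H10A.5 (I, 12095482 to 12097987) was depleted from both IPs and less so with WAGO-1 of the deletion, with 301, 324.5 and 337 CPM in its IPs and 126, 144 and 125 CPM in the WAGO-3 IPs. The inputs held 4820, 4990 and 5183 CPM in the deletion and 5738, 6078 and 5980 CPM in the WAGO-3 strain. The difference was 1.52 ± 0.11 (adjusted p = 4.59e-24). K02E2.6 differed by 1.47 ± 0.12 (adjusted p = 1.09e-21) in the same manner, with enrichments of -3.27 in the deletion and -4.74 with WAGO-3.

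C38D9.2 (V, 17567150 to 17571739) was instead enriched more with WAGO-3, with 200, 205 and 209.9 CPM in the WAGO-1 IPs of the deletion and 3681, 3657 and 3637 CPM in the WAGO-3 IPs. Its inputs were 157, 142.3 and 206 CPM in the deletion and 487, 511 and 548 CPM in the WAGO-3 strain. The enrichments were 0.26 and 2.83, and 1.66 with intact WAGO-1. The difference from WAGO-3 was -2.56 ± 0.17 (adjusted p = 7.21e-27). F15D4.5 was enriched by 1.38 in the deletion and 2.47 with WAGO-3 (difference -1.09 ± 0.10, adjusted p = 4.47e-17), but the difference was 0.14 under scaling to all counted reads. Over the list, the median difference was -0.77 although the median enrichment in the deletion, -2.32, was above that with WAGO-3, -3.56. The 16 loci held 1.2% ± 0.041 of feature counts in the WAGO-1 IPs of the deletion and 3.90% ± 0.0034 in the WAGO-3 IPs (SD, n = 3 each), with no overlap (two-sided exact permutation p = 0.1, the smallest that 3 against 3 can give). In the inputs they held 3.43% ± 0.20 and 4.43% ± 0.051, also without overlap and in the same direction.

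A few genes had a higher enrichment with WAGO-1 of the dpf-3 deletion than with either WAGO-3 or intact WAGO-1. larp-1 (III, 5008925 to 5017650), a La-related RNA-binding protein gene, had 615, 578 and 585 CPM in the WAGO-1 IPs of the deletion and 23.6, 29.4 and 35.3 CPM in the WAGO-3 IPs. Its inputs were 264, 266 and 287.5 CPM in the deletion and 86.2, 104.2 and 78.3 CPM in the WAGO-3 strain, also without overlap. With TMM the enrichment was 1.12 in the deletion, -1.66 with WAGO-3 and -2.07 with intact WAGO-1, so that the deletion differed from WAGO-3 by 2.78 ± 0.24 (adjusted p = 2.5e-19) and from intact WAGO-1 by 3.19 ± 0.23 (adjusted p = 6.69e-24). Whether the enrichment in the deletion lies above 0 depends on the scaling. Its median over all features was 0.40 with TMM and -0.67 under scaling to total feature counts.

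prp-8, a core protein of the spliceosome, followed the same pattern. It had 657, 636 and 646.5 CPM in the WAGO-1 IPs of the deletion and 60.6, 52.1 and 51.4 CPM in the WAGO-3 IPs, and differed from WAGO-3 by 2.32 ± 0.22 (adjusted p = 1.51e-17) and from intact WAGO-1 by 3.31 ± 0.21 (adjusted p = 6.11e-28). Its inputs differed by 1.23. ifg-1, the eIF4G scaffold of translation initiation, had an input difference of 2.12 and differed from WAGO-3 by 1.7 ± 0.25 (adjusted p = 1.1e-08) and from intact WAGO-1 by 3.11 ± 0.27 (adjusted p = 1.23e-17). daz-1, an RNA-binding regulator of oogenesis, differed by 1.39 ± 0.36 (adjusted p = 0.00166) and 2.54 ± 0.36 (adjusted p = 4.38e-08). Among 30 germline RNA-binding and oogenesis genes as a whole, 2 were higher (6.67%) and 2 lower (6.67%), against 15.7% and 6.56% of all genes. Under scaling to all counted reads 10 of the 30 were higher and none lower. larp-1, prp-8, ifg-1 and daz-1 were set together because of their values in the deletion.

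Sperm genes were depleted from both IPs and less deeply with WAGO-1 of the deletion. Of 59 spermatogenesis genes 53 were tested, 15 were higher (28.3%) and 3 lower (5.66%), against 15.7% and 6.56% of all genes, and the median difference was 1.48. Median enrichments were -1.82 in the deletion, -3.42 with WAGO-3 and -2.16 with intact WAGO-1, which lay nearer the deletion. Only 16 of them had 10 counts in each of the 4 groups, with 7 higher and 2 lower and a median of 0.74. ssp-35 and ssp-16, of a family of sperm-specific proteins, differed by 2.53 ± 0.44 and 1.81 ± 0.32. spe-41, a TRP-family channel of sperm, went the other way, with 27.02, 29.4 and 23.85 CPM in the WAGO-1 IPs of the deletion and 478, 461 and 425 CPM in the WAGO-3 IPs and a difference of -2.53 ± 0.40 (adjusted p = 1.49e-07). spe-12 also went the other way, with -2.20 ± 0.29.

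Major sperm protein genes encode the cytoskeletal protein of the crawling sperm and are near-identical copies, so reads may be split among them. Of 31 genes 29 were tested, 10 were higher (34.5%, against 15.7% of all genes) and none lower (against 6.56%), with a median difference of 2.12. Median enrichments were -1.79 in the deletion, -3.67 with WAGO-3 and -1.83 with intact WAGO-1. Only 4 of these genes had 10 counts in each group. msp-76 differed by 2.80 ± 0.58 and msp-57 by 3.25 ± 0.83. The 31 genes held 0.0126% ± 0.0013 of feature counts in the WAGO-1 IPs of the deletion and 0.00156% ± 0.00012 in the WAGO-3 IPs (SD, n = 3 each), against 0.0745% ± 0.012 and 0.0593% ± 0.0087 in the inputs, which overlapped.

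Of 81 genes of cytosolic ribosomal proteins 80 were tested, 14 were higher and 3 lower, a share near that of all genes, with a median difference of 0.76. Among the 44 with 10 counts in each group 12 were higher and none lower, with a median of 1.14, beside 705 higher and 670 lower and a median of -0.19 over the 4675 such features. rpl-42 had 283, 256.5 and 272 CPM in the WAGO-1 IPs of the deletion and 26.8, 28.8 and 24.2 CPM in the WAGO-3 IPs, over overlapping inputs of 88.1, 123 and 133 CPM and 86.2, 104.2 and 88.1 CPM. Its difference was 3.04 ± 0.28 (adjusted p = 3.83e-18). rps-25 differed by 3.83 ± 0.81 and rps-2 by 2.04 ± 0.42. The 81 genes held 0.296% ± 0.026 of feature counts in the WAGO-1 IPs of the deletion and 0.0443% ± 0.0020 in the WAGO-3 IPs. In the inputs they held 0.377% ± 0.019 and 0.151% ± 0.0028.

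Other genes of protein synthesis and splicing were called in both directions, beside 15.7% of all genes higher and 6.56% lower. Translation factors had 4 of 30 higher (13.3%) and 3 lower (10%), shares near those of all genes, among them eef-1A.1, an elongation factor, at 2.73 ± 0.38 (adjusted p = 2.58e-09). Aminoacyl-tRNA synthetases had none of 31 higher and 5 lower, with cars-1, the cysteine enzyme, at -1.89 ± 0.40. That call was lost, at -0.65, under scaling to all counted reads. Spliceosome genes had 2 of 88 higher, prp-8 and snrp-27 (1.03 ± 0.19), and 10 lower. The balance of these lists turned with the scaling: under all counted reads spliceosome genes had 32 higher and 1 lower and the synthetases 7 higher and none lower, and under total feature counts spliceosome genes had 12 higher and 3 lower. Of the 10 lower spliceosome genes, snrp-200, a helicase of the spliceosome, had 199, 185 and 181 CPM in the WAGO-1 IPs of the deletion and 493, 473 and 442 CPM in the WAGO-3 IPs, and differed by -1.7 ± 0.15 (adjusted p = 1.04e-19).

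Among genes of meiosis and chromatin more were lower than higher with TMM and more higher than lower under scaling to all counted reads, with 15.7% of all genes higher and 6.56% lower as the background. Of 38 meiotic chromosome genes 1 was higher and 8 lower. chk-2, a meiotic kinase, differed by -1.28 ± 0.21 and him-3, a protein of the chromosome axis, by -1.41 ± 0.31, while klp-7, a kinesin of the spindle, was the one higher gene at 1.09 ± 0.16. Of 45 chromatin modifier genes 1 was higher and 11 lower, with set-2, a methyltransferase of histone H3, at -1.82 ± 0.24 (adjusted p = 2.94e-10) and mrg-1, a chromodomain protein, at -1.35 ± 0.29. Linker histone genes were enriched with both proteins, at medians of 1.6 and 1.7, with 1 of 7 higher (hil-8, 0.51 ± 0.09) and 3 lower, among them hil-5 at -1.82 ± 0.33. chk-2, him-3, mrg-1 and hil-5 kept their sign and lost their calls under scaling to all counted reads, and him-3 and mrg-1 also did without the filter on low counts. Under that scaling meiotic genes had 11 higher and none lower and chromatin modifiers 17 higher and 1 lower, with medians of 0.67 and 0.801.

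**Figure D4:**
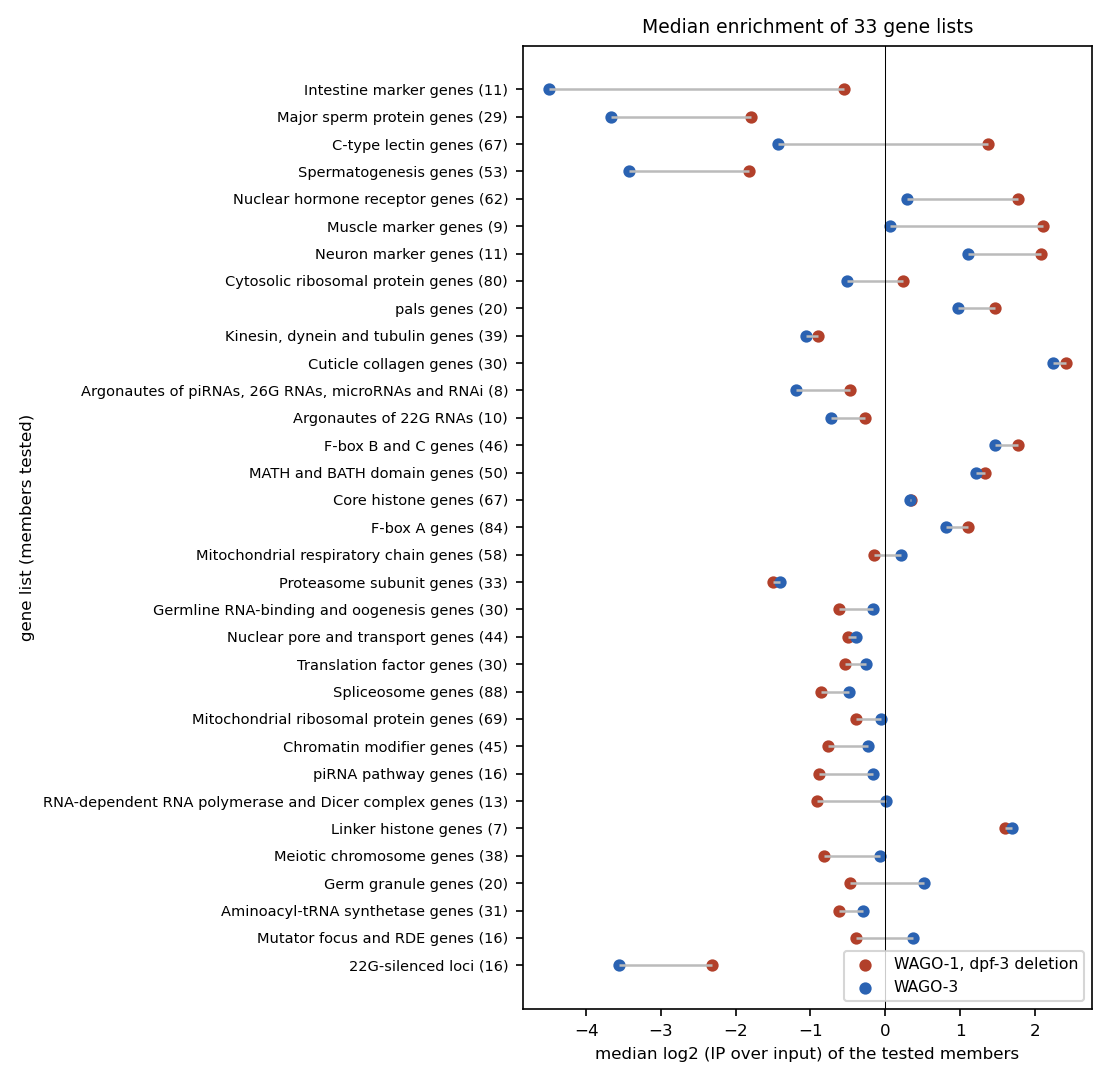
Median log2 ratio of IP to input over the tested members of each gene list, for WAGO-1 of the dpf-3 deletion and for WAGO-3. C-type lectin genes have medians of 1.37 and -1.44 and intestine markers of -0.56 and -4.50, while germ granule genes have medians of -0.47 and 0.51.

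Large families with many silent members were mostly untested for lack of reads. Of 269 nuclear hormone receptor genes 62 were tested, 17 were higher (27.4%, against 15.7% of all genes) and 2 lower (3.23%, against 6.56%), with median enrichments of 1.78 in the deletion and 0.29 with WAGO-3. With intact WAGO-1 their median enrichment was 1.48. Their median difference was 1.29, and 0.41 among the 16 with 10 counts in each group, of which 5 were higher and 1 lower. Besides nhr-229, nhr-171 had 129, 127 and 136 CPM in the WAGO-1 IPs and 5.74, 4.29 and 12.11 CPM in the WAGO-3 IPs, a difference of 4.00 ± 0.45 (adjusted p = 4.27e-13). The family held 1.24% ± 0.081 of feature counts in the WAGO-1 IPs of the deletion and 0.626% ± 0.018 in the WAGO-3 IPs, with overlapping inputs of 0.707% ± 0.019 and 0.714% ± 0.0074.

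C-type lectins, secreted proteins of which many respond to infection, had 67 of 240 tested, 20 higher and none lower, against 15.7% and 6.56% of all genes, with median enrichments of 1.37 in the deletion and -1.44 with WAGO-3. clec-108 had 89.2, 89.6 and 98.6 CPM in the WAGO-1 IPs of the deletion and 1.28, 3.06 and 2.02 CPM in the WAGO-3 IPs, a difference of 5.48 ± 0.67 (adjusted p = 1.52e-11). clec-57 differed by 4.88 ± 0.58, clec-119 by 2.66 ± 0.28 and clec-171 by 2.63 ± 0.43. Only 7 of the 67 had 10 counts in each group, with 4 higher and none lower. With intact WAGO-1 the median enrichment of the 67 was 1.17. Cuticle collagens had 30 of 176 tested, 4 higher and none lower, among them col-128 at 5.49 ± 0.98. DESeq2 called 4 higher and 3 lower, with a median of -0.43. With edgeR, their median difference of 0.41 became -0.611 when the 9 genes with a group at 0 were set to their bounds. As a share of feature counts the 176 collagens stood at 0.0584% ± 0.0015 in its WAGO-1 IPs and 0.623% ± 0.0080 in the WAGO-3 IPs, over 0.0375% ± 0.0053 and 0.376% ± 0.00999 in the inputs (SD, n = 3 each), without overlap in either (two-sided exact permutation p = 0.1 each, the smallest possible).

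Families of fast-changing genes had no common balance of calls, with 15.7% of all genes higher and 6.56% lower beside them. F-box A genes had 84 of 170 tested, 11 higher and 12 lower. F-box B and C genes had 46 of 152 tested, 14 higher (30.4%) and 1 lower (2.17%). With 10 counts in each group, 6 F-box A genes were higher and 11 lower (median -0.487). Of such MATH and BATH domain genes 4 were higher and 8 lower (median -0.485), and the median of all such features was -0.19. The F-box genes named next are all higher ones. fbxa-224 had 592, 607 and 588 CPM in the WAGO-1 IPs of the deletion and 83.5, 95.01 and 70.6 CPM in the WAGO-3 IPs, and differed by 3.68 ± 0.19 (adjusted p = 1.66e-36). fbxa-61 (2.00 ± 0.17), fbxc-44 (1.7 ± 0.18) and fbxb-97 (1.27 ± 0.17) were also higher. MATH and BATH domain genes had 7 of 50 tested higher and 9 lower, with bath-29 at -2.0 ± 0.38 (-0.76 and not called under scaling to all counted reads), and pals genes had 1 of 20 higher and 2 lower, with pals-26 at -1.67 ± 0.20. Kinesin, dynein and tubulin genes had 7 of 39 tested higher, a share near that of all genes, and 1 lower, and their median of 0.45 was 0.089 among the 26 with 10 counts in each group. The higher genes included unc-116, the kinesin heavy chain, at 1.65 ± 0.26, dlc-6, a dynein light chain, at 2.81 ± 0.39 and dhc-4, a dynein heavy chain, at 3.05 ± 0.56.

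Markers of somatic tissues were examined because the libraries came from whole animals, in which fewer cells of a type and less RNA per cell cannot be told apart. Of 20 muscle markers 9 were tested, 2 were higher and none lower. Of all genes 15.7% were higher and 6.56% lower, and with so few markers tested the muscle and neuron counts lie near those shares. The list summed to 0.166 to 0.170% of feature counts in the WAGO-1 IPs of the deletion and 0.0495 to 0.0531% in the WAGO-3 IPs, over 0.0799 to 0.124% and 0.0480 to 0.0609% in the inputs. Most of the list's counts in both kinds of IP came from ttn-1, with 18494 in the WAGO-1 IPs of the deletion and 3933 in the WAGO-3 IPs. unc-54 was next, with 5541 and 753. mlc-2 had no count in the WAGO-1 IPs of the deletion, and mlc-1, unc-27 and unc-98 had none in the WAGO-3 IPs. unc-52, the perlecan of muscle attachment, differed by 4.09 ± 0.97 (adjusted p = 0.000588) on 3 counts in the inputs of the deletion.

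Of 25 neuron markers 11 were tested, 1 was higher and none lower. The list summed to 0.0493 to 0.0533% in the WAGO-1 IPs of the deletion and 0.0128 to 0.0142% in the WAGO-3 IPs, over 0.0254 to 0.0330% and 0.0173 to 0.0212% in the inputs. unc-47 had no count in any of the 4 groups, and cha-1 and snt-1 had none in the WAGO-3 IPs. unc-10, a synaptic protein, differed by 4.05 ± 0.66 (adjusted p = 2.61e-07), and by 2.71 (adjusted p = 0.0516) without WAGO-3 input replicate B.

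Of 24 intestine markers 11 were tested, 7 were higher and none lower, against 15.7% and 6.56% of all genes. Median enrichments were -0.56 in the deletion, -4.50 with WAGO-3 and -0.82 with intact WAGO-1. None of the 11 had 10 counts in each group. The list summed to 0.0115 to 0.0126% in the WAGO-1 IPs of the deletion and 0.000648 to 0.000952% in the WAGO-3 IPs, with overlapping inputs of 0.0164 to 0.0203% and 0.0180 to 0.0226%. In the WAGO-3 IPs 7 of the 24 had no count, among them the transcription factor genes elt-2 and elt-7. asp-3, an aspartyl protease, had 7.01, 5.72 and 8.57 CPM in the WAGO-1 IPs and 0.638, 0.613 and 1.01 CPM in the WAGO-3 IPs, a difference of 4.11 ± 0.91 (adjusted p = 0.000194). cpr-5, a cathepsin B-like protease, differed by 4.24 ± 0.89, and asp-1, with no count in the WAGO-3 IPs, was at least 6.96-fold higher in the WAGO-1 IPs. The part of tissue makeup in the differences was not tested.

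Intervals with no gene name took 12.04% ± 0.056 of the feature counts from the WAGO-1 IPs of the deletion and 23.0% ± 0.089 in the WAGO-3 IPs (SD, n = 3 each), over 8.32% ± 0.057 and 14.2% ± 0.16 in the inputs. Neither kind of library overlapped between the strains (two-sided exact permutation p = 0.1 each, the smallest possible). Of the intervals tested, 5.45% were higher and 11.4% lower. Among the 497 spanning 1000 bases or more, 7.04% were higher and 22.1% lower. Among the 818 of at least 200 but under 1000 bases 4.28% were higher and 7.46% lower, and among the 464 under 200 bases 5.82% and 6.68%. The median differences, from the longest class to the shortest, were -0.55, -0.58 and -0.32. They did not follow width as the shares of lower calls did. Among the intervals with the largest higher differences, chrIII:3276149-3277198 on the plus strand, had 2795, 2896 and 2870 CPM in the WAGO-1 IPs of the deletion and 96.3, 95.01 and 92.8 CPM in the WAGO-3 IPs, over overlapping inputs of 513.5, 432 and 505 CPM and 504, 600.1 and 577.5 CPM. Its difference was 5.12 ± 0.14 (adjusted p = 2.11e-65).

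A pair of neighbouring intervals on the minus strand, chrII:2530102-2530493 and chrII:2529694-2530077, differed by 5.57 ± 0.44 and 5.17 ± 0.29. The largest lower difference among intervals with at least 10 counts in each group was -2.99 ± 0.64, at chrII:10033666-10034114 on the plus strand. A longer one, chrII:14687826-14693449 on the plus strand, had 115, 111 and 121 CPM in the WAGO-1 IPs of the deletion and 692, 673 and 635 CPM in the WAGO-3 IPs, and differed by -2.80 ± 0.27 (adjusted p = 4.47e-17). Its enrichments were 0.26 and 3.06, and the inputs overlapped.

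On every chromosome more genes were higher with WAGO-1 of the dpf-3 deletion than lower, as over all genes (15.7% and 6.56%). On X, of 685 tested, 142 were higher (20.7%) and 23 lower (3.36%), with a median difference of 1.02 from median enrichments of 1.26 in the deletion and -0.05 with WAGO-3. The median on X was 1.59 with intact WAGO-1. On chromosomes II, IV and V the higher shares were 17, 18.2 and 18.2% and the lower ones 6.94, 6.13 and 6.04%. Chromosome I had 12.59% higher and 6.88% lower, and chromosome III 10.5% and 7.82%. Among intervals the order changed: on X 3.34% were higher and 8.91% lower, and on chromosome V 18.6% were lower.

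**Figure D5:**
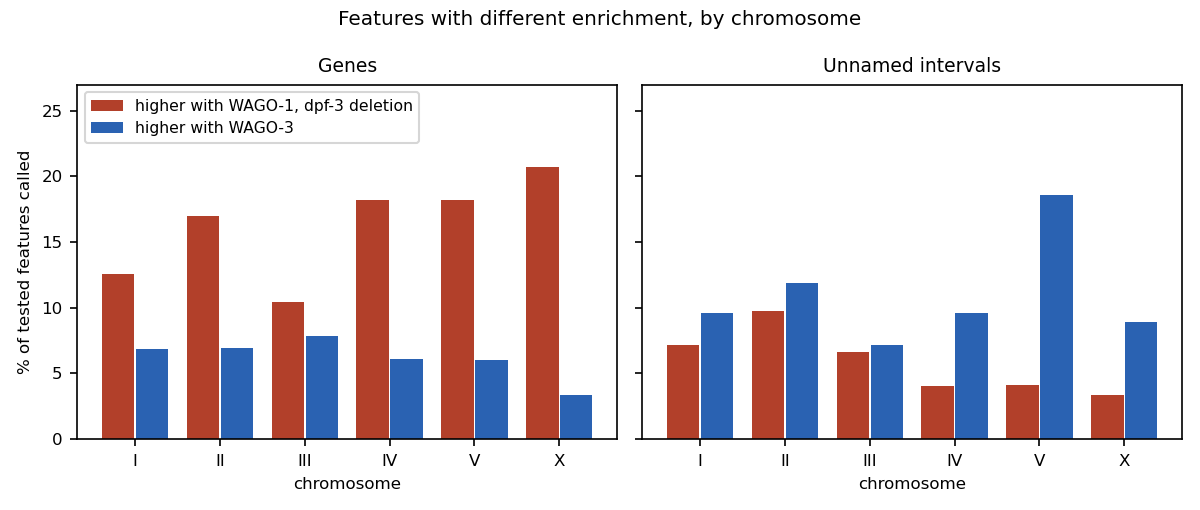
Share of tested genes (left) and unnamed intervals (right) called different on each chromosome, with features higher with WAGO-1 of the dpf-3 deletion beside those higher with WAGO-3. X has 20.7% and 3.36% of its genes in the 2 classes, and chromosome V has 18.6% of its intervals higher with WAGO-3.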

How the data were processed

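The members, gene lists and tests were chosen with earlier results of these data known. The authors deposited 1 table of read counts, not normalised, with 20134 genes, 55259 unnamed intervals and 5 summary lines; its 18 columns all matched a library. Per the submitters' processing notes, cutadapt 2.3, Bowtie 1.2.3, SAMtools 1.9, HTSeq 0.11.2 and build ce11 were used. The sources used here do not give the annotation, strand setting or treatment of reads with several positions, so sense and antisense reads, overlapping genes and near-identical copies cannot be told apart. RefSeq coordinates (WBcel235, the same assembly) matched 19579 genes by identifier. The summary lines were left out of scaling and testing. Reads outside features made up 32.5 to 82.4% of a library.

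Counts of all 18 libraries were fitted with edgeR 4.0.16 (R 4.3.3; glmQLFit, glmQLFTest, TMM, filterByExpr with a minimum count of 10) with 1 mean per group, and the difference of enrichments was tested as the interaction. Standard errors are the log2 change over the square root of F. Exact permutation tests used SciPy 1.17.1. The fit was also run on simulated counts, and the outcome is not given here. Alternatives were other scalings, DESeq2 1.42.0, no filter, only the 12 libraries compared, a replicate block and leaving out each library. Genes were named by size: the 12 largest called differences in each direction among genes with at least 20 CPM in a group, 10 counts in each and no overlap, the largest with fewer counts, the largest intervals, genes bounded within 2-fold, up to 4 per list by p, and wago-1, ppw-2 and dpf-3. daz-1, ifg-1, larp-1 and prp-8 were grouped after their values were seen. No sequences were used. The deviations of IP and input with the same letter, in the strains compared, correlated at -0.0376 to 0.156, and not every pair passed 0.1, so letters were not taken as pairs.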

Additional observations from a re-analysis of the deposited data

Results flagged for a closer look

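Of the 126 and 15 genes that met the rule on counts and were reversed by at least 2-fold between the IPs, the 6 with the largest difference in each direction are given. With TMM, the enrichment of these 12 genes with WAGO-1 of the dpf-3 deletion and that with WAGO-3 went in opposite directions, and edgeR's quasi-likelihood test called their difference. The sign of an enrichment depends on the scaling. The median WAGO-3 enrichment over all features was 0.23 with TMM and -1.39 under scaling to total feature counts. Higher with WAGO-1 of the deletion were T22B2.2 with a log2 difference of 5.85, C09F9.2 with 5.84, lgc-37 with 5.79, F41H10.2 with 5.68, F12A10.6 with 5.56 and F46F5.5 with 5.47. In C09F9.2 the enrichments were 2.91 in the deletion and -2.94 with WAGO-3, and in lgc-37 they were 3.19 and -2.60. For these 6 genes WAGO-1 with dpf-3 intact was enriched as well, by 2.14 (F41H10.2) to 3.08 (F12A10.6).

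Lower with WAGO-1 of the deletion were T05G5.4 with -5.19, ndx-2 with -4.65, ulp-5 with -3.86, cin-4 with -3.54, timm-17B.1 with -3.39 and K11H3.2 with -3.17. Of these, K11H3.2 had an enrichment of -2.09 in the deletion, 1.08 with WAGO-3 and -0.52 with intact WAGO-1. Intact WAGO-1 was depleted of the other 5 too, from -2.92 for T05G5.4 to -0.35 for timm-17B.1.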

How the results depend on the processing

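The differences of the named features were recomputed under 18 alternatives: 1896 values kept their direction and side of the threshold, 19 fell below it, 4 rose past it and 25 changed sign. With total feature counts, 2646 features were higher and 352 lower, the deletion IP had 1493 higher and 4315 lower, the WAGO-3 IP 1185 and 6063, and 118 were 2-fold enriched in both. With all counted reads, 4633 were higher and 127 lower, the deletion IP had 5769 and 1264, and 346 differences were bounded within 2-fold. Without the filter 256 were lower, 1636 were lower in the deletion IP and 4391 were bounded. With only the 12 libraries 528 were lower. With 10 counts in each group, chosen after seeing the data, 705 were higher. The cause was not tested, beyond fewer or more features being tested in the last 3.

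Leaving out 1 library gave 1326 to 1779 higher and 580 to 837 lower. Signs turned for Y37E3.30 (0.50 total, 1.18 all counted, 0.07 DESeq2, 0.43 no filter, 0.27 with 12 libraries) and abhd-14 (0.45, 1.12, 0.02, 0.38, 0.22), and with all counted reads for F15D4.5 (0.14), wago-4 (0.35) and znfx-1 (0.15). Without single libraries the difference ran from -0.14 to 0.26 for Y37E3.30, from -0.25 to 0.10 for abhd-14 and from -0.38 to 0.44 for dpf-3.

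The replicate letters, shared between strains, were not taken as pairs, since not every same-letter correlation of deviations passed 0.1 (-0.0376 to 0.156). A fit with strain and letter as a replicate block called 1561 higher and 817 lower. Bounds from shifted null hypotheses, also chosen after seeing the data, gave 720 features in place of 773. Depth limits the inputs: 3 counts over a group are worth 4.04 CPM in the inputs of the deletion and 2.97 CPM in those of WAGO-3, so depletion of weak loci was not detectable.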

Other observations

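Genes of some housekeeping complexes had fewer higher calls with TMM, for their number, than all genes, of which 15.7% were higher and 6.56% lower. Of 33 proteasome subunit genes 1 was higher with WAGO-1 of the dpf-3 deletion (3.03%) and 3 were lower (9.09%), and 29 were depleted from the WAGO-1 IP of the deletion and 23 from the WAGO-3 IP. Mitochondrial ribosomal protein genes had 1 higher and 2 lower of 69 tested (of 70), respiratory chain genes 3 and 2 of 58 (of 61), nuclear pore and transport genes 1 and 3 of 44 (2.27% and 6.82%), and core histone genes 3 and 3 of 67 (of 71). Under scaling to all counted reads proteasome genes had 18 higher and none lower, and nuclear pore and transport genes 23 higher and none lower. Core histone genes are near-identical copies, so values of single histone genes are uncertain.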
